A study of Homo sapiens with 4 samples.

Results

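The metallothionein mRNAs were examined in RNA immunoprecipitation sequencing (RIP-seq) libraries of HCCLM3 cells, an established human hepatocellular carcinoma line. The members were 6 genes of the metallothionein cluster on chromosome 16, namely MT1E, MT1F, MT1G, MT1M, MT1X and MT2A, and they were found by their gene name in the deposited transcript tables. MT1E, MT1X and MT2A, 3 of the 6, had rows, with 7 listed transcripts among 34975, and their values were summed into 3 of 13300 gene totals. MT1F, MT1G and MT1M were not analysed here.

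RNA-protein complexes were recovered from cell lysates with beads that carried either an antibody against KIAA1429, a subunit of the complex that writes N6-methyladenosine (m6A) on mRNA, or normal IgG as the control for unspecific recovery. Each group held 2 libraries, labelled replicate 1 and replicate 2, so 4 libraries were compared, all from the same line. The comparison asked which RNAs were more abundant in the KIAA1429 RIP than in the IgG RIP. No input library was analysed here, so the abundance of an mRNA in the cells and its recovery by the beads cannot be told apart. The labels do not say whether the replicates came from separate cultures. The p-values below rest on the spread between these libraries, which may be technical. For each gene the limma test draws this spread toward that of other genes of like level.

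Metallothioneins are very small proteins, rich in cysteine, that bind zinc and copper and, on exposure, cadmium. Liver cells make them in quantity, and their genes are switched on by metals, glucocorticoids and stress through promoter elements that include those read by the metal-sensing transcription factor MTF1. MT2A and the MT1 genes arose by duplication within a single cluster and their mRNAs are short, spliced from 3 exons each. Because the copies resemble each other closely, sequencing reads from one can be assigned to another.

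The coding sequences show how close the copies are, and they also hold GGAC, the core of the sequence in which m6A is commonly placed. They were read from the GENCODE annotation on GRCh37, the build of the deposited coordinates, and are given 5′ to 3′ on the plus strand of chromosome 16, spliced, from the start codon to the stop codon, with each GGAC in capitals. The coding sequence of MT2A-201 lies at chr16:56642568-56643266, that of MT1E-201 at chr16:56659764-56660883 and that of MT1X-201 at chr16:56716453-56717961.
MT2A: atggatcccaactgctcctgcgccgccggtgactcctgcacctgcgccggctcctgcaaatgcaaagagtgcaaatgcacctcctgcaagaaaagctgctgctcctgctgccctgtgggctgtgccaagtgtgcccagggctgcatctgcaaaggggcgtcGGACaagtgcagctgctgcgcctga
MT1E: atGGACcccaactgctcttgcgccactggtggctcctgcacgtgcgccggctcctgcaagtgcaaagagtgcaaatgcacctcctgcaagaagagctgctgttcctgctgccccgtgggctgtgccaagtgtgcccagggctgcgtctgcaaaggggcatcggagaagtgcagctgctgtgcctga
MT1X: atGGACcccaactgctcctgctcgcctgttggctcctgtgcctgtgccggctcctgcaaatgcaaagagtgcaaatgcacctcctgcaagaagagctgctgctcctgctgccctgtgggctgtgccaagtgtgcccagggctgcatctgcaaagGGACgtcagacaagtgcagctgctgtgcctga

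Each coding sequence was 186 bases long, and 20 of its 61 codons before the stop encoded cysteine. MT2A differed from MT1E at 14 of the 186 bases, and it also differed from MT1X at 14. MT1E and MT1X differed at 17 bases, an identity of 90.9%. The similarity extended beyond the coding sequence for MT1X, in which 51.0% of all stretches of 50 bases along the 404 bases of the spliced mRNA occurred letter for letter in an annotated transcript of another gene. The same share was 11.1% for the 401 bases of MT2A-201 and 5.34% for the 704 bases of MT1E-201. Stretches of 100 bases were shared by MT1X alone among the 3 (22.0%), and then with 1 unnamed annotated gene. How the fragments of these mRNAs were assigned was not tested.

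GGAC was counted on the transcript strand. MT2A-201 held 2 copies, 1 coding and 1 in the 3′ UTR. MT1E-201 held 3, of which 2 lay in its 5′ UTR of 377 bases and 1 in the coding sequence. MT1X-201 held 3, of which 2 were coding and 1 lay in the 3′ UTR. The motif was present in 97.9% of 26600 listed protein_coding transcripts found in the annotation, with a median of 3.83 per kb, so its presence did not set the metallothioneins apart. The densities were 4.99 per kb in MT2A-201, 4.26 in MT1E-201 and 7.43 in MT1X-201.

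The position of the 3′ UTR copies was shared. In MT2A and MT1X a GGAC began at base 6 after the stop codon, and MT1E had none there, as the 12 last coding bases followed by 18 bases of 3′ UTR show, again with GGAC in capitals. These windows lie at chr16:56643255-56643284 for MT2A, chr16:56717950-56717979 for MT1X and chr16:56660872-56660901 for MT1E.
MT2A: tgctgcgcctgatgctgGGACagccccgct
MT1X: tgctgtgcctgatgccaGGACagctgtgct
MT1E: tgctgtgcctgatgtgggaacagctcttct

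Levels were read as FPKM, the fragments assigned to a transcript scaled by its length and by the mapped fragments of the library, which allows a comparison between genes. MT2A was the most abundant metallothionein mRNA in every library and supplied 85.5 to 90.2% of the FPKM summed over the 3 members. It ranked between 28 and 35 among the 13300 gene totals in each library. MT1E, in turn, ranked between 294 and 799, and MT1X between 1476 and 4452. Per length, MT2A stood 7.41 to 11.1 times above MT1E within a library, and MT1E stood 3.75 to 4.86 times above MT1X. The order MT2A, MT1E, MT1X was thus the same in all 4 libraries, and no value of one gene reached the range of the next.

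MT2A, whose protein is the main metallothionein isoform in many human cells, measured 683 and 881 FPKM in the IgG RIP libraries and 866 and 1044 FPKM in the KIAA1429 RIP libraries. The lower KIAA1429 RIP value fell 14.8 FPKM short of the higher IgG RIP value, so the groups overlapped. The means were 782 ± 140.4 FPKM in IgG RIP and 955 ± 126 FPKM in KIAA1429 RIP (SD, n = 2 each), a ratio of 1.22. By limma across 11361 gene totals on the scale log2(FPKM + 1), the difference was 0.29 with a standard error of 0.38 and a 95% interval from -0.61 to 1.198, which excludes neither a lower nor a 2-fold higher level (adjusted p = 0.997, Benjamini-Hochberg). The direction depended on which scaling was used, since quantile normalization of the libraries turned the difference to -0.056, while median scaling left it at 0.28.

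MT1E, an MT1 isoform, measured 61.7 and 107 FPKM with IgG, against 106 and 141 FPKM with the KIAA1429 antibody. The overlap was small, the lower KIAA1429 RIP value lying 0.762 FPKM below the higher IgG RIP value, and the library that stood apart was IgG RIP replicate 1. The means were 84.1 ± 31.8 FPKM and 123 ± 24.8 FPKM (SD, n = 2 each). The limma difference was 0.58 with a standard error of 0.36 and a 95% interval from -0.27 to 1.44 (adjusted p = 0.997, Benjamini-Hochberg).

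MT1X, the least abundant of the 3, measured 12.7 and 28.4 FPKM with IgG, against 24.2 and 36.3 FPKM with the KIAA1429 antibody. The values of the groups interleaved, with IgG RIP replicate 2 above KIAA1429 RIP replicate 1 by 4.16 FPKM. The means were 20.5 ± 11.1 FPKM and 30.3 ± 8.53 FPKM (SD, n = 2 each). The limma difference of 0.61 had a standard error of 0.45 and a 95% interval from -0.44 to 1.67 (adjusted p = 0.997, Benjamini-Hochberg).

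**Figure D1:**
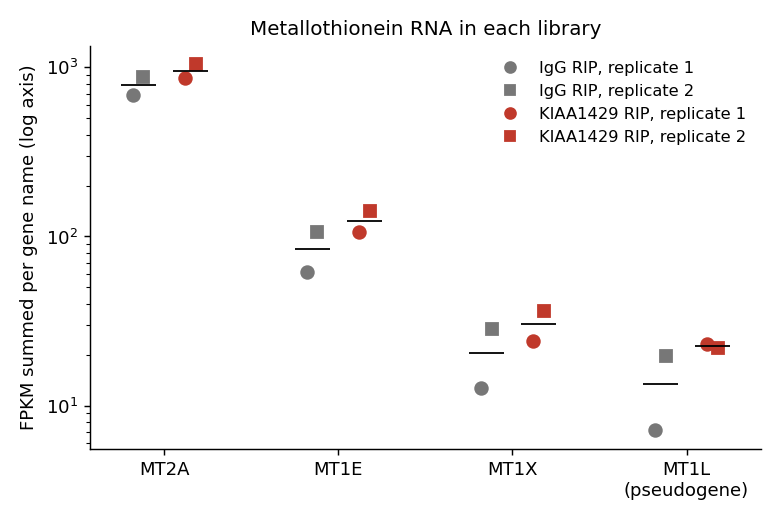
FPKM summed per gene name (log axis) for MT2A, MT1E, MT1X and the pseudogene MT1L, with 1 point per library, grey for IgG RIP, red for KIAA1429 RIP, circles for replicate 1 and squares for replicate 2, and bars at the group means. Each of the 3 mRNAs has overlapping groups, as for MT1E at 61.7 and 107 against 106 and 141 FPKM, and IgG RIP replicate 1 is the lowest point in all 4 columns.

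None of the 3 metallothionein gene totals was called higher in KIAA1429 RIP at an adjusted p under 0.05 and a log2 fold change above 1. That call was made for 0% of the 11361 gene totals tested by limma, of which 266 were higher and 135 lower beyond that fold change at an unadjusted p under 0.05. The unadjusted limma p was 0.466 for MT2A, 0.148 for MT1E and 0.212 for MT1X. With 2 libraries against 2, an exact two-sided permutation test of a single value cannot give less than 0.333.

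Read by the ranges, 0 of the 3 had both KIAA1429 RIP libraries above both IgG RIP libraries, against 16.6% of the gene totals tested. Within each replicate number all 3 were higher in KIAA1429 RIP on the deposited scale, although the group difference of MT2A was -0.056 under quantile normalization. This pattern was found in 27.4% of the gene totals. By the spliced length of the longest listed transcript, it was found in 34.5% of gene totals of up to 600 bases. The share was 50% for those of over 600 and up to 1000 bases. For MT2A the ratio was 1.27 between the libraries numbered 1 and 1.19 between those numbered 2. The ratios for MT1E were 1.72 and 1.32, and those for MT1X were 1.91 and 1.28. The ratio was thus larger between the libraries numbered 1 for each of the 3 genes.

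The 3 members also differed in the same direction between the replicates of a group. The library labelled replicate 2 held the higher value in IgG RIP and in KIAA1429 RIP for each of the 3, a pattern found in 23.1% of the gene totals. In IgG RIP the replicates differed 1.29-fold for MT2A, 1.73-fold for MT1E and 2.24-fold for MT1X. In KIAA1429 RIP they differed 1.205-fold, 1.33-fold and 1.498-fold in the same order of genes. For each gene the replicates of IgG RIP therefore lay further apart than the group means did, by 1.29-fold against 1.22-fold for MT2A, 1.73-fold against 1.47-fold for MT1E and 2.24-fold against 1.47-fold for MT1X.

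**Figure D2:**
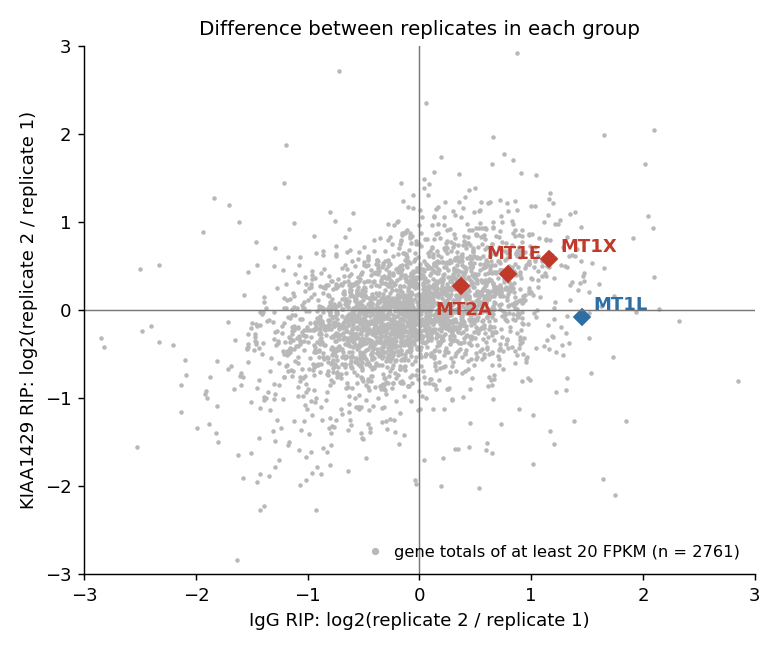
Log2 ratio of replicate 2 to replicate 1 in IgG RIP (horizontal) and in KIAA1429 RIP (vertical), with a grey dot for each of 2761 gene totals with a mean of at least 20 FPKM and diamonds for the metallothioneins (6 gene totals lie outside the axes). MT2A at 0.37 and 0.27, MT1E at 0.79 and 0.41 and MT1X at 1.16 and 0.58 lie in the upper right part, and the pseudogene MT1L lies at 1.46 and -0.080.

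Leaving out IgG RIP replicate 1 lowered the limma difference to 0.11 for MT2A, 0.19 for MT1E and 0.062 for MT1X. Leaving out IgG RIP replicate 2 raised it to 0.48, 0.97 and 1.16. Without KIAA1429 RIP replicate 1 it was 0.43 for MT2A, 0.79 for MT1E and 0.89 for MT1X, and without KIAA1429 RIP replicate 2 it was 0.16, 0.38 and 0.33. Omitting either IgG RIP library or KIAA1429 RIP replicate 2 thus moved the difference of each member by over 1.5 times, and omitting KIAA1429 RIP replicate 1 moved it by less, while none of these fits gave an adjusted p under 0.05. In such a fit the lone library of a group was assumed to vary like the libraries of the other group.

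Summed over MT2A, MT1E and MT1X, the metallothionein mRNAs amounted to 757 and 1016 FPKM with IgG, against 997 and 1221 FPKM with the KIAA1429 antibody. The groups overlapped by 19.8 FPKM. The log2 ratio of the group means was 0.32 ± 0.37, the error being the square root of the sum of both squared SDs, taken on log2 values. The difference was smaller than this spread. The log2 ratio of the sum without MT2A, which dominates it, was 0.55.

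Counting error was estimated from the values themselves. Among 1719 genes with a single listed transcript, the product of FPKM and length in kilobases took certain values far more often than others, and the commonest was read as the worth of 1 fragment. It implied about 981000 and 742000 fragments in the IgG RIP libraries and 872000 and 976000 in those of KIAA1429 RIP. Of the values below 6 fragments, 38.6 to 42.4% lay within 0.03 of a multiple of 0.5 fragments, too few to recover reads, so these depths are estimates and no count test was run. A smaller peak lay at 0.5 of the commonest value, and if that were 1 fragment, the depths and fragment numbers would be 2 times as large.

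On that estimate MT2A rested on 269 and 265 fragments with IgG, against 303 and 409.5 with the KIAA1429 antibody. MT1E rested on 42.6 and 55.6 against 64.9 and 94.0 fragments. MT1X rested on 5.03 and 8.51 against 8.53 and 14.3 fragments, and its exact 95% Poisson intervals, from 1.64 to 11.7 in the library with the least and from 7.88 to 23.9 in that with the most, overlapped. Counting alone would give the log2 ratio a standard error of 0.083 for MT2A, 0.19 for MT1E and 0.49 for MT1X. For MT2A and MT1E this was below the limma standard errors of 0.38 and 0.36, while for MT1X it was near the 0.45 of the fit on this estimate of depth. The limma standard errors also draw on the spread of other genes. How much of each gene's own spread between libraries was counting error was therefore not tested. The Poisson intervals cover counting error only, and the lengths used for MT2A-201 and MT1X-201 are those of the annotation, whose starts lie 385 and 46 bases downstream of the deposited ones.

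The gene totals came almost entirely from the reference mRNAs. MT2A-201 made up 97.0 to 99.4% of the MT2A total, MT1E-201 made up 94.6 to 100% of the MT1E total, and MT1X had MT1X-201 alone. MT2A-201 measured 675 and 855 FPKM with IgG, against 861 and 1031 FPKM with the KIAA1429 antibody. Both KIAA1429 RIP values were higher, by a margin between the nearest libraries that was far smaller than the gap within either group, and this lack of overlap was shared by 15.2% of the 23375 transcripts tested. The limma difference was 0.31 with a 95% interval from -0.52 to 1.14 (adjusted p = 0.879, Benjamini-Hochberg over the transcripts), and under quantile normalization it was -0.031.

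MT1E-201 measured 61.7 and 106 FPKM with IgG, against 106 and 133 FPKM with the KIAA1429 antibody, with overlapping groups. Its limma difference was 0.55, with a 95% interval from -0.46 to 1.55 (adjusted p = 0.879, Benjamini-Hochberg). MT1E-203, a second protein_coding transcript of MT1E, was listed at 0 and 0.381 FPKM with IgG, against 0.253 and 7.57 FPKM with the KIAA1429 antibody. Its high value in KIAA1429 RIP replicate 2 corresponded to 2.45 fragments on the estimated depth, and the 0 in IgG RIP replicate 1 allowed a level of up to 9.21 FPKM.

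For each of the 3 minor transcripts of MT2A, the replicates of at least 1 group lay further apart than the group means. MT2A-204, a processed_transcript without an annotated protein, measured 0.0744 and 9.29 FPKM with IgG, against 0.0651 and 0.0399 FPKM with the KIAA1429 antibody. Both KIAA1429 RIP values were the lower ones, as for 14.5% of all transcripts tested, but the value of 9.29 FPKM in IgG RIP replicate 2 stood alone and the other 3 libraries were each under 0.1 of a fragment. MT2A-202 measured 0.418 and 5.23 FPKM with IgG, against 0.687 and 5.19 FPKM with the KIAA1429 antibody, high in the libraries numbered 2. MT2A-205 measured 7.02 and 12.1 FPKM against 4.201 and 8.004 FPKM, with overlapping groups. No listed metallothionein transcript passed the transcript test, with adjusted p-values by limma from 0.879 to 1.00, and over all transcripts 0 were called while 675 were higher and 542 lower beyond the fold change at an unadjusted p under 0.05.

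MT1L, a metallothionein pseudogene between MT2A and MT1E, was listed as a processed_transcript with 7.14 and 19.6 FPKM with IgG, against 23.2 and 21.9 FPKM with the KIAA1429 antibody. On the deposited scale both KIAA1429 RIP values were above both IgG RIP values, as for 16.6% of the gene totals tested. The nearest pair was 2.37 FPKM apart. The limma difference was 0.86 with a standard error of 0.48 and a 95% interval from -0.27 to 2.004 (adjusted p = 0.997, Benjamini-Hochberg). The IgG RIP replicates differed 2.74-fold, more than the 1.69-fold between the group means. MT1L shares stretches of at least 25 bases with MT2A, MT1E and MT1X, and how much of its value came from their reads was not tested.

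The metallothioneins were next set beside other genes by mRNA length, since they are among the shortest spliced mRNAs listed. The log2 ratio of KIAA1429 RIP to IgG RIP had a median of 0.0088 over all 11361 gene totals, with the middle 50% of values spanning -0.34 to 0.39. By the spliced length of the longest listed transcript, the median was 0.32 for 255 gene totals of up to 600 bases, 0.46 for 492 of over 600 and up to 1000 bases, 0.17 for 1880 of up to 2000 bases, 0.035 for 3865 of up to 4000 bases and -0.089 for 4054 of over 4000 bases. The median was thus lower in each step from the class that ends at 1000 bases upward. The IgG RIP replicates differed by length in a like way, with median log2 ratios of replicate 2 to replicate 1 of 0.16, 0.26, 0.084, -0.15 and -0.33 in the same 5 classes. In KIAA1429 RIP these medians were -0.23, 0.0064, -0.0038, -0.054 and -0.076. A difference by length was thus present between the control libraries as well.

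The log2 ratios of the members were 0.29 for MT2A, 0.55 for MT1E and 0.56 for MT1X. These exceeded those of 69.5%, 82.4% and 82.6% of all gene totals. Against gene totals of over 600 and up to 1000 bases, the class of its longest listed transcript, MT1E exceeded 57.5%, and MT2A exceeded 39.4%. The main mRNA of MT2A is 401 bases long in the annotation, while its deposited start lies 385 bases further upstream. Against gene totals of up to 600 bases MT1X exceeded 59.2%, and MT2A exceeded 49.4%. Among mRNAs of like length the metallothioneins therefore stood near the middle. This is a description of where they rank, and the part that length plays in their values was not tested.

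**Figure D3:**
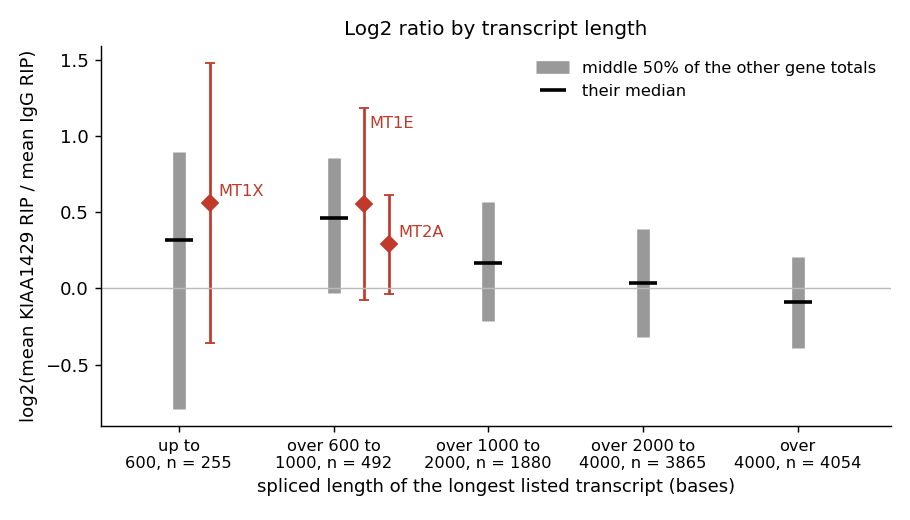
Log2 ratio of the mean KIAA1429 RIP to the mean IgG RIP FPKM, by the spliced length of the longest listed transcript, with grey bars for the middle 50% of the gene totals in each class, black marks for their medians and red diamonds for the metallothioneins (error bars as for the summed ratio). The medians run from 0.32 and 0.46 in the 2 shortest classes to -0.089 above 4000 bases. MT1X, MT1E and MT2A lie within the grey range of their class. Not drawn are the medians of replicate 2 to replicate 1, which run from 0.16 and 0.26 to -0.33 within IgG RIP. Within KIAA1429 RIP those medians run from -0.23 and 0.0064 to -0.076, with the lowest in the shortest class.

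A stricter list gave a higher value. In 105 gene totals with listed transcripts that were all protein_coding and at most 600 bases long, the median log2 ratio was 0.58. In that list 34 (32.4%) had both KIAA1429 RIP libraries above both IgG RIP libraries, and 50.5% were higher in KIAA1429 RIP within both replicate numbers. The median log2 ratio of replicate 2 to replicate 1 in this list was 0.082 in IgG RIP and -0.21 in KIAA1429 RIP. On this measure the members lay well within the 255 gene totals of up to 600 bases, MT2A, MT1E and MT1X exceeding 53.7%, 64.7% and 70.6% of them with IgG, and 61.6%, 63.5% and 67.1% with the KIAA1429 antibody. Of gene totals of any length with a mean of at least 20 FPKM, they exceeded 75.89%, 91.35% and 97.18% with IgG. With the KIAA1429 antibody these shares were 74.55%, 82.15% and 89.54%. In 218 gene totals chosen by a genomic span of at most 2000 bases, the median log2 ratio of KIAA1429 RIP to IgG RIP was 0.24.

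The genes around the cluster were read for comparison. Of 10 non-member gene totals tested within 500 kb of the outermost members, MT1L included, 4 were higher in KIAA1429 RIP within both replicate numbers. That pattern was found in 27.4% of all gene totals tested. The median log2 ratio of the 10 was 0.20. The nearest gene on the left, BBS2, a subunit of the BBSome of the cilium, measured 11.7 and 8.20 FPKM with IgG, against 5.13 and 14.1 FPKM with the KIAA1429 antibody. The nearest on the right, NUP93, a scaffold protein of the nuclear pore, measured 27.6 and 25.6 FPKM with IgG, against 25.2 and 13.9 FPKM with the KIAA1429 antibody. For NUP93 both KIAA1429 RIP values were the lower ones, as for 1729 of the 11361 gene totals tested. Its limma difference was -0.48 (adjusted p = 0.997, Benjamini-Hochberg).

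Metallothioneins share their metals with transporters and chaperones, and 31 of 39 listed genes of metal handling were tested. The limma test called 0 of them, and the median log2 ratio was -0.12. At an unadjusted p under 0.05, 2 were higher beyond the fold change, against 266 of all 11361 gene totals tested. MTF1, the transcription factor that activates metallothionein genes when zinc rises, measured 6.44 and 7.95 FPKM with IgG, against 5.65 and 6.60 FPKM with the KIAA1429 antibody, with overlapping groups. SLC30A1, which exports zinc across the plasma membrane and is also a target of MTF1, measured 9.12 and 8.14 FPKM against 8.79 and 6.36 FPKM, again with overlap.

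ATOX1, a small copper chaperone, was 1 of the 2 with an unadjusted p under 0.05. It measured 57.8 and 70.6 FPKM with IgG, against 149 and 117 FPKM with the KIAA1429 antibody. Both KIAA1429 RIP values were thus above both IgG RIP values, as for 16.6% of the gene totals tested. Its limma difference was 1.03 with a standard error of 0.30 and a 95% interval from 0.33 to 1.74, and it did not pass the correction (adjusted p = 0.993, Benjamini-Hochberg). SOD1, the copper and zinc superoxide dismutase, measured 134 and 119 FPKM against 173 and 131 FPKM, with overlapping groups. The other gene with an unadjusted p under 0.05, SLC39A4, a zinc importer named here after its values were seen, was listed at 0 in both IgG RIP libraries and at 3.05 and 5.10 FPKM with the KIAA1429 antibody (limma adjusted p = 0.984, Benjamini-Hochberg). The fragments behind these low values were not estimated, so the 0 does not show absence.

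The other metal handling genes with the highest levels were zinc transporters. SLC39A14, of the plasma membrane, measured 41.3 and 36.4 FPKM with IgG, against 46.5 and 40.4 FPKM with the KIAA1429 antibody, with overlapping groups. SLC39A7, which releases zinc from the endoplasmic reticulum, measured 45.4 and 49.5 FPKM with IgG, against 35.6 and 31.9 FPKM with the KIAA1429 antibody. Both of its KIAA1429 RIP values were the lower ones, as for 1729 of the 11361 gene totals tested. The limma difference of SLC39A7 was -0.48 with a 95% interval from -1.15 to 0.19 (adjusted p = 0.997, Benjamini-Hochberg).

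The 5 gene totals with the pattern most like that of the summed metallothioneins were sought over the 4 libraries among 5164 non-members with a mean of at least 10 FPKM, by the Euclidean distance between deviations of log2(FPKM + 1) from each gene's own mean. They were GPAA1, RPS16, AES, FAM213A and EGLN2, at distances from 0.026 to 0.085, where the median candidate lay at 0.798. RPS16, a protein of the small ribosomal subunit, measured 289.8 and 398 FPKM with IgG, against 391.8 and 480.2 FPKM with the KIAA1429 antibody. GPAA1, a subunit of the enzyme that attaches lipid anchors to proteins, measured 15.8 and 21.8 FPKM against 20.8 and 26.1 FPKM. The distances rest on only 4 libraries, and 901 of the 5164 candidates lay within the wider bound of 0.5.

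Marker genes of several cell types were read as sums in the same libraries. Of 14 hepatocyte and hepatoma markers 13 had rows, with summed levels of 1544 to 1798 FPKM in IgG RIP and 1719.6 to 1822 FPKM in KIAA1429 RIP. These sums include KRT8, KRT18 and EPCAM and do not show which of the markers supplied them. Of 4 leukocyte markers CD14 and CD68 had rows, with summed levels of 34.6 to 73.0 FPKM in IgG RIP and 30.8 to 44.4 FPKM in KIAA1429 RIP, and PTPRC and CD3E had none. None of 3 endothelial markers and 1 of 3 fibroblast markers, PDGFRB, had rows, the latter at 1.05 to 1.204 FPKM in IgG RIP and 3.17 to 4.88 FPKM in KIAA1429 RIP. Between 26.6 and 32.2% of listed transcripts were at 0 in a library.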

How the data were processed

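RIP-seq libraries of HCCLM3 cells, 2 of IgG RIP and 2 of KIAA1429 RIP, were grouped by the sample titles. The authors recovered RNA with magnetic beads, selected poly(A) mRNA, fragmented it and sequenced it on an Illumina HiSeq 4000 system. Per the study's methods reads were aligned to GRCh37/hg19 with HISAT2, while the submitters' processing notes name Bowtie2 2.1.0, and the quantifier is not given in the sources used here. The deposited values are FPKM, with 1 value for each transcript in each library. FPKM was summed per gene name, features averaging 1 FPKM or more were kept, and log2(FPKM + 1) was tested two-sided with limma 3.58.1 (trended variance, R 4.3.3) with Benjamini-Hochberg adjustment over all features tested. Fold changes on this scale understate the change of low features. Differences beyond 1 with an adjusted p under 0.05 were called. The study's count test could not be used on FPKM. The procedure was tested on simulated data.

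The members and gene lists were chosen with earlier results of these data known. The text names the 6 members, listed metallothionein pseudogenes, MTF1, SLC30A1 and the metal handling genes of highest mean up to 6, the nearest neighbours and the 5 genes of most like pattern. Sequences and spliced lengths came from GENCODE release 44 lifted to GRCh37, with Python 3.11.15. Alternatives covered the pseudocount, filter, scaling, trend, replicate block, transcripts summed and libraries left out.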

Additional observations from a re-analysis of the deposited data

How the results depend on the processing

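Over 42 refits of the 3 metallothionein gene totals, 41 kept the direction and none passed an adjusted p under 0.05 (limma adjusted p from 0.508 to 1.00), the exception in direction being MT2A at -0.056 under quantile normalization. The cause of that change was not tested. The filters, the replicate block and the trend setting leave the difference itself unchanged, so those refits could not change direction. The same holds for the refits of the listed transcripts. Leaving out 1 library at a time gave limma differences from 0.11 to 0.48 for MT2A, 0.19 to 0.97 for MT1E and 0.062 to 1.16 for MT1X, and a log2 ratio of the summed FPKM from 0.13 to 0.55. The other settings of that sum gave 0.30 to 0.55. Of 79 refits of the listed transcripts 76 kept the direction, while MT2A-201 was at -0.031 under quantile normalization and MT2A-202, which spanned -0.95 to 1.19 when 1 library was left out, was at -0.95 without IgG RIP replicate 1 and -0.82 without KIAA1429 RIP replicate 2. The count of 0 gene totals called changed under the replicate block alone, to 12 higher and 1 lower, none a metallothionein, and the transcript count stayed at 0 under every setting. The replicate numbers are shared by the groups without a stated pairing, and deviations of same-numbered libraries correlated at 0.19 for gene totals and 0.030 for transcripts. With the block the limma p of MT1E was 0.037 unadjusted and 0.508 adjusted, that of MT1X 0.616 adjusted and that of MT2A 0.878 adjusted, and the mean log2 ratio of the sum within numbers was 0.33. With about 742000 to 981000 estimated fragments a library, MT1X and the minor transcripts rested on few fragments.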
